A study of Mus musculus with 12 samples.

Results

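The genes described here carry lipoprotein fats and cholesterol into and out of cells: the apolipoproteins Apoc2 and Apoe, the lipase Lpl, the scavenger receptor Cd36, the cholesterol efflux transporters Abca1 and Abcg1, and the sterol-sensing receptors Nr1h2 and Nr1h3. They were chosen by measured values: Apoc2 was high and Abca1 low in age-associated B cells of these same arrays. For that reason the age-associated B cell differences are given as a description, without p-values. Of the 8 genes, 7 had at least 1 probe set that names a single gene, out of 18193 genes measured, and Nr1h2 is not analysed here. RNA came from B cells of female C57BL/6 mice, sorted by flow cytometry without culture. Splenic age-associated B cells (old ABC) came from mice older than 15 months. Peritoneal B1 cells (old B1, titled B1a) and splenic follicular B cells (old FO) came from mice of the same age class, and peritoneal B1 cells of 8-week mice made up the fourth group (young B1). Each group had 3 arrays, 12 in all. The labels name neither the surface markers of the sorts nor whether the arrays of a group came from separate mice, so the spread between arrays may be partly technical.

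Lipoprotein lipase splits the triglycerides of circulating lipoproteins and needs ApoC-II as its activator, while ApoE on the particle is bound by receptors of the LDL receptor family. CD36 takes up oxidised lipoproteins and long-chain fatty acids, and ABCA1 and ABCG1 pass cellular cholesterol out to ApoA-I and HDL. The liver X receptors, encoded by Nr1h3 (LXR alpha) and Nr1h2 (LXR beta), are bound by oxysterols, pair with RXR and, in macrophages, switch on Abca1, Abcg1, Apoe, Apoc2 and Lpl.

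LXR and RXR bind a direct repeat with 4 bases between its copies, and the promoters of Abca1 and Apoc2 are shown because these genes moved in opposite directions in old ABC. RefSeq windows of 250 bases before and 50 after the start site (mouse GRCm38.p6) were at hand for 6 of the 8 genes, in 9 windows. The Abca1 window is chr4:53159846-53160145 and the Apoc2 window is chr7:19677892-19678191, both on the minus strand. They are written 5′ to 3′ along the gene, with the match to 2 copies of NGGTNA with 4 bases between them, found on the opposite strand, in capitals.
Abca1: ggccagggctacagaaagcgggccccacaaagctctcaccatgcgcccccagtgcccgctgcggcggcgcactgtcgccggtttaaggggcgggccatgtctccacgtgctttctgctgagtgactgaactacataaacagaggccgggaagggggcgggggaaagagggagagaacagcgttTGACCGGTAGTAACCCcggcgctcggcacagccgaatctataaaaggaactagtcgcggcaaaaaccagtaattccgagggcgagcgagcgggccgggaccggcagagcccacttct
Apoc2: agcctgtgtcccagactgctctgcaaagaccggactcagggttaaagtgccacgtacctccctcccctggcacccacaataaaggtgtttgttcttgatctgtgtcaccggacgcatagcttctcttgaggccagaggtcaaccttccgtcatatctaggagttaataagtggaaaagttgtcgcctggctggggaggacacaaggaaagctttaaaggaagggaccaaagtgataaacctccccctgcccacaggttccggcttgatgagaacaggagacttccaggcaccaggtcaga
The single match among the 9 windows was TGACCGGTAGTAACCC in Abca1, with its first base at position -67 from the start site. The letters of the repeat occur in 0.718% of all 32851 windows. The Abca1 window also held CACGTG, found in 7.15% of windows, GGGCGG, found in 35.7%, and TATAAA, found in 13.6%. The Apoc2 window held none of these 4 motifs and no GAGGAA, a motif of 28.3% of windows, when both strands were searched. These are matches of letters, not measured binding.

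The median intensity of the 12 arrays lay between 44.0 and 49.2. The 75th percentile was 346 on old B1 replicate 3 and 378 on old FO replicate 2, against 400.1 to 412 on the other 10 arrays. Where leaving out either moves a value by much or changes a call, the value without it is given. Values below are log2 of the deposited intensity, differences carry the standard error of a limma fit over all 12 arrays, and genes whose Benjamini-Hochberg adjusted p lay under 0.05 are termed called. The B cell gene Cd79a lay between 13.08 and 13.37 on every array. Tbx21 and Itgax, which mark age-associated B cells, were at 11.35 to 12.10 and 11.48 to 12.29 in old ABC, and at or under 8.63 on all other arrays. Cr2 and Fcer2a, follicular markers, were at 12.12 to 12.39 and 12.15 to 12.24 in old FO. Cd5, the B1a marker, was at 6.76 to 8.70 in old B1 and 8.68 to 8.73 in young B1, against 5.89 to 6.60 in old FO. In old ABC it was at 7.18 to 7.56. Spn, another B1 marker, was at 11.68 to 12.13 in old ABC, 9.48 to 10.88 in old B1 and 8.53 to 9.22 in old FO. Of 5 B1 markers, 4 were called higher in old ABC than in old FO, beside 7.12% of all genes. The B1 markers were thus not particular to the B1 groups.

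Of the 7 genes, Apoc2, Apoe, Lpl, Abcg1 and Nr1h3 had a higher mean in old ABC than in old FO, and Abca1 and Cd36 a lower one. The arrays of old ABC and old FO did not overlap for 6 of the 7, a pattern seen in 28.8% of all genes. Against old B1, Apoc2, Apoe and Nr1h3 were higher in old ABC and Lpl, Cd36, Abca1 and Abcg1 were lower, and 4 of the 7 did not overlap, again beside 28.8% of all genes. Called genes made up 9.96% of all genes in old ABC against old FO and 12.8% in old ABC against old B1. The genes were selected on these contrasts, so nothing is read from the counts.

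**Figure D1:**
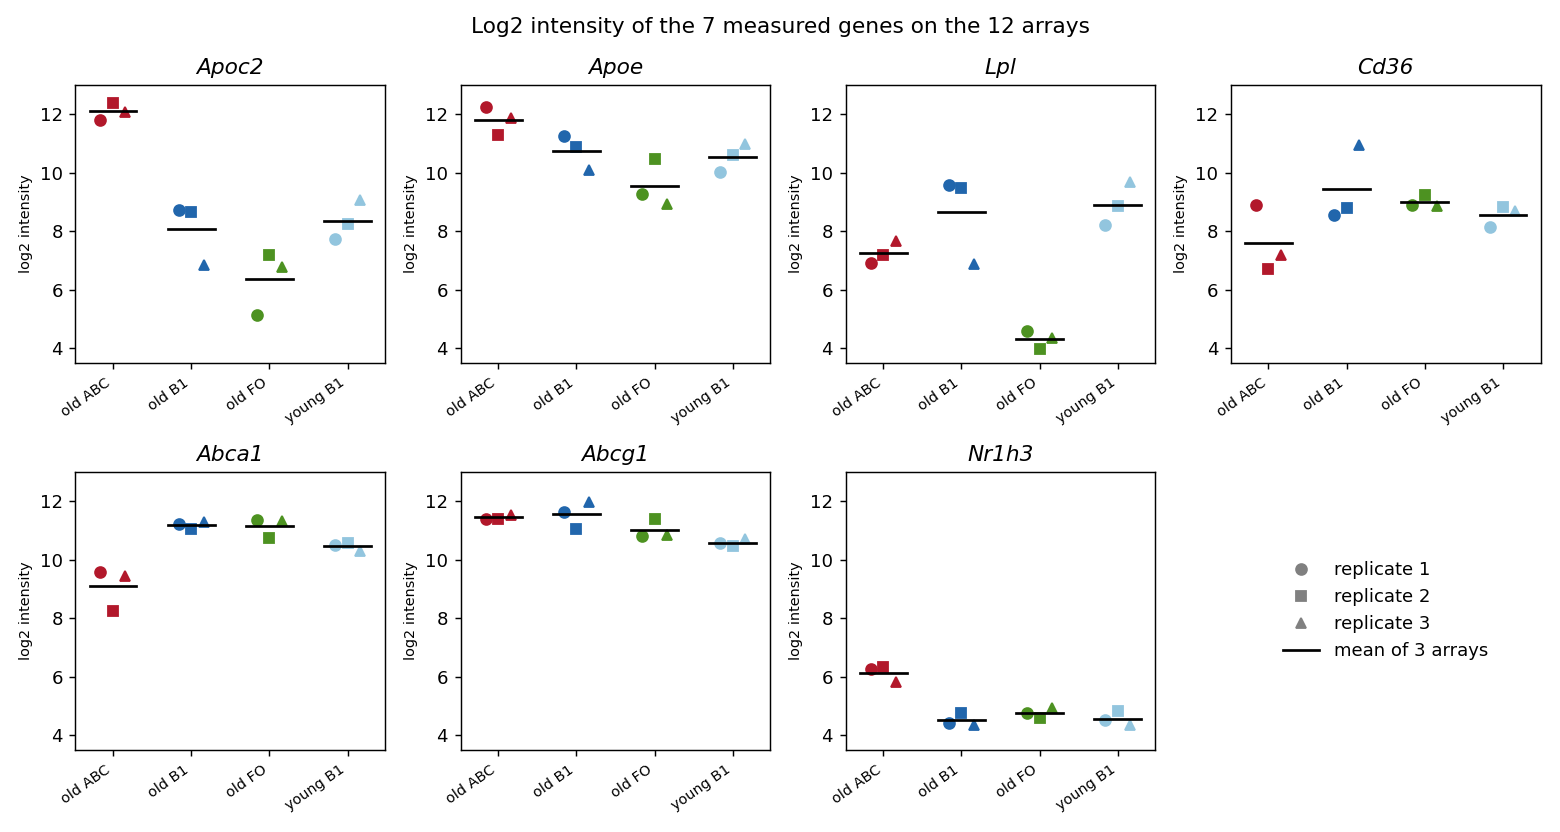
Log2 intensity (vertical axis) of the 7 measured genes on each of the 12 arrays, by group; symbols mark replicates 1 to 3 and lines the mean of 3 arrays. Apoc2 stands at 11.82 to 12.38 in old ABC, above all other arrays, and Abca1 at 8.24 to 9.58, below them.

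Apoc2, the lipase activator, had log2 intensities of 11.82, 12.38 and 12.09 in old ABC. It had 8.73, 8.65 and 6.83 in old B1, and 5.15, 7.18 and 6.79 in old FO. It had 7.73, 8.25 and 9.05 in young B1. All old ABC arrays stood above the other 9 without overlap, while the B1 groups overlapped each other and old B1 overlapped old FO. The old ABC mean exceeded the old FO mean by 5.72 ± 0.61 (SE, n = 3 each), a 52.8-fold difference in intensity, and the old B1 mean by 4.03 ± 0.61, or 16.3-fold. The differences were 5.11 without old FO replicate 1, an array with Apoc2 under its median, and 3.41 without old B1 replicate 3. In bulk RNA, fewer cells that carry a transcript and less of it per cell cannot be told apart.

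Apoc2 lies on chromosome 7 in the gene order Apoc2, Apoc4, Apoc1, Apoe (GRCm38.p6). The neighbours Apoc4 and Apoc1 were chosen after their values were seen. Apoc4 was nearly flat, at 4.12 to 4.77 over the 12 arrays. It lay under the median of every array, so little can be read from its flatness. Apoc1, another small lipoprotein-bound protein, was at 4.80, 5.36 and 5.42 in old ABC, against 4.41, 3.37 and 4.59 in old FO. It was at 5.36, 5.47 and 3.79 in old B1, against 6.54, 7.12 and 7.81 in young B1. Outside young B1 it lay under the median of each array, so these sizes depend on the scale. Apoc1 was thus highest in young B1, where Apoc2 was not, and it was called in none of the 4 comparisons (limma adjusted p = 0.135 for old B1 against young B1).

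Apoe, the ligand of lipoprotein receptors, had 12.24, 11.28 and 11.87 in old ABC. It had 11.24, 10.89 and 10.08 in old B1, and 9.27, 10.48 and 8.94 in old FO. It had 10.03, 10.60 and 11.00 in young B1. Old ABC arrays were again the highest, but the lowest of them, at 11.28, stood close to the highest old B1 array, at 11.24. The old ABC mean was 2.23 ± 0.44 above old FO, or 2.69 without old FO replicate 2. It was 1.06 ± 0.44 above old B1, or 0.73 without old B1 replicate 3. The difference was smaller than that of Apoc2 in both contrasts; the gap between the genes was not tested.

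Lpl had 6.91, 7.18 and 7.65 in old ABC. It had 9.59, 9.49 and 6.87 in old B1, and 8.22, 8.85 and 9.67 in young B1. It had 4.58, 3.98 and 4.37 in old FO, under the median of each of those 3 arrays, so folds against old FO are not exact. Old FO was lowest without overlap, and old ABC lay between old FO and the B1 groups apart from old B1 replicate 3. The old ABC mean was 2.94 ± 0.64 above old FO, or 1.83 with 32 added to every intensity and 1.76 as the mean of both probe sets, and it was 1.40 ± 0.64 below old B1 (difference -1.40), or -2.29 without old B1 replicate 3. Lpl and its activator thus differed in order: Apoc2 was highest in old ABC and Lpl was highest in the B1 groups.

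Cd36 had 8.89, 6.72 and 7.18 in old ABC. It had 8.57, 8.81 and 10.94 in old B1, and 8.90, 9.24 and 8.88 in old FO. It had 8.15, 8.84 and 8.70 in young B1. The old ABC array at 8.89 lay within the range of old FO and the other 2 lay below every other array. Old ABC minus old FO was -1.41 ± 0.64, and -2.06 without old ABC replicate 1. Old ABC minus old B1 was -1.84 ± 0.64, -0.59 with array weights and -1.10 without old B1 replicate 3, which held the highest Cd36 value of all arrays. The 3 Cd36 probe sets put the groups in the same order.

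Abca1, the transporter that loads cholesterol onto ApoA-I, had 9.58, 8.24 and 9.43 in old ABC. It had 11.20, 11.03 and 11.26 in old B1, and 11.36, 10.72 and 11.31 in old FO. It had 10.50, 10.57 and 10.30 in young B1. All 3 old ABC arrays stood below the other 9. Old ABC minus old FO was -2.04 ± 0.31, a 4.13-fold lower intensity, and old ABC minus old B1 was -2.08 ± 0.31, 4.23-fold lower. Old B1 and old FO overlapped, and young B1 lay below both without overlap.

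The other 2 Abca1 probe sets also had their lowest means in old ABC. In the first of these, old ABC had 4.60, 3.67 and 4.39, old B1 had 5.98, 5.81 and 6.10, and old FO had 6.94, 5.73 and 6.31. In the other, old ABC had 3.56, 3.64 and 3.61, old B1 had 4.52, 4.50 and 4.75, and old FO had 5.55, 4.35 and 4.87. Old ABC minus old FO was -2.10 and -1.32 for the pair, and old ABC minus old B1 was -1.74 and -0.99. All 3 probe sets thus gave lower values in old ABC, and the last of them lay under the 25th percentile of each old ABC array.

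Abcg1, the transporter that passes cholesterol to HDL, had 11.40, 11.39 and 11.53 in old ABC. It had 11.61, 11.04 and 11.98 in old B1, and 10.80, 11.38 and 10.84 in old FO. It had 10.57, 10.47 and 10.68 in young B1. Old ABC and old B1 overlapped and young B1 was below all other arrays. The lowest old ABC array, at 11.39, stood barely above the highest old FO array, at 11.38. Old ABC minus old FO was 0.43 ± 0.22, or 0.62 without old FO replicate 2, and old ABC minus old B1 was -0.10 ± 0.22. The difference from old B1 was 0.11 without old B1 replicate 3. A second probe set gave 0.31 against old FO and 0.58 against old B1, so the 2 probe sets disagreed in sign for old ABC against old B1. The low intensity of Abca1 in old ABC was therefore not shared by Abcg1.

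**Figure D2:**
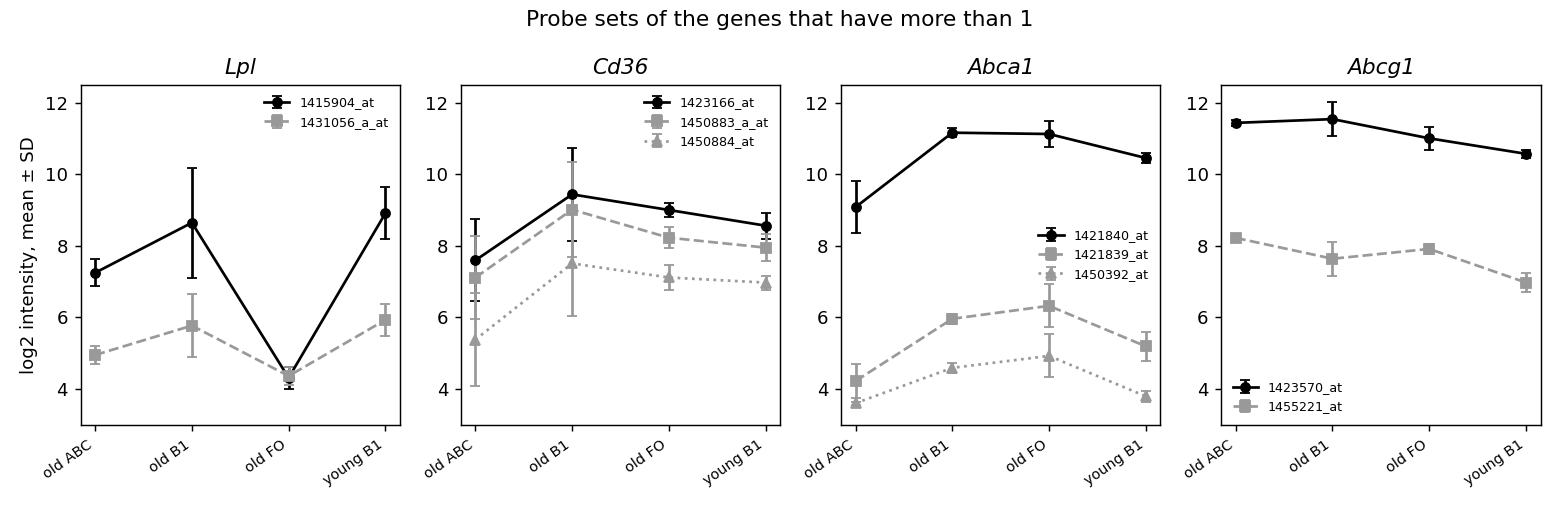
Mean log2 intensity ± SD of 3 arrays for each probe set of the 4 genes that have more than 1, by group. The 3 Abca1 probe sets are all lowest in old ABC, while the 2 Abcg1 probe sets put old ABC on opposite sides of old B1 (-0.10 and 0.58).

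Nr1h3, LXR alpha, had 6.27, 6.31 and 5.82 in old ABC. It had 4.42, 4.74 and 4.35 in old B1, and 4.77, 4.57 and 4.92 in old FO. It had 4.51, 4.83 and 4.35 in young B1. Old ABC stood above the other 9 arrays, each of which held Nr1h3 under its own median. Old ABC minus old FO was 1.38 ± 0.18 and old ABC minus old B1 was 1.63 ± 0.18. Because the lower values are dim, these sizes depend on the scale and were 0.80 and 0.91 with 32 added to every intensity. Beside the higher Nr1h3, Apoc2 and Apoe were higher and Abca1 was lower in old ABC than in both other old groups. Lpl was higher than in old FO and lower than in old B1, and the Abcg1 probe sets disagreed in sign against old B1. The genes were chosen because Apoc2 was high and Abca1 low in old ABC, so these opposite directions are not a result. A link to Nr1h3 was not tested.

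**Figure D3:**
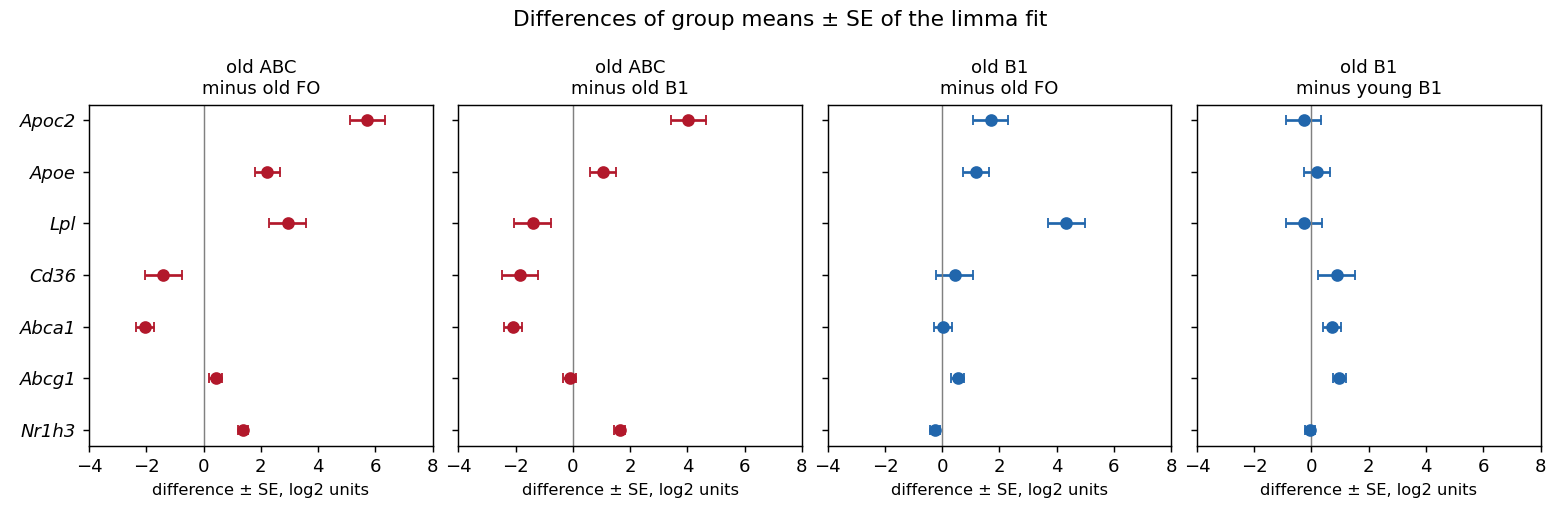
Difference of group means in log2 units (horizontal axis, bars ± SE of the limma fit) of the 7 genes in the 4 comparisons, first-named minus second-named group. In old ABC minus old FO, Apoc2 is at 5.72 and Abca1 at -2.04, and in old B1 minus old FO, Lpl is at 4.34.

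The contrasts without old ABC were not used to pick the genes, and could be tested. In old B1 against old FO, 16.4% of all genes were called and 1 of the 7, Lpl, was called. An unadjusted limma p under 0.05 was seen in 4 of the 7, beside 5199 of all 18193 genes. Lpl was 4.34 ± 0.64 higher in old B1 (20.2-fold, limma adjusted p = 9.9e-04), and its 3 old B1 arrays lay above all 3 old FO arrays. Non-overlap of these groups was seen in 28.9% of all genes and in this gene alone of the 7. The second Lpl probe set gave 1.41 with an adjusted p of 0.0323 over all probe sets. The difference was 5.22 without old B1 replicate 3 and 3.10 with 32 added to the intensity.

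Apoc2 did not pass in old B1 against old FO, at 1.70 ± 0.61 (limma adjusted p = 0.0888, 95% interval 0.35 to 3.04). The value turned on single arrays: without old B1 replicate 3 Apoc2 was at 2.31 (adjusted p = 0.0116), and without that array and old FO replicate 2 at 2.72 (adjusted p = 0.00489). Without old FO replicate 1, its lowest array, Apoc2 was at 1.08 (adjusted p = 0.290). Apoe was at 1.18 ± 0.44 (adjusted p = 0.105), and passed at 1.63 without old FO replicate 2 (adjusted p = 0.0226) and at 1.51 without old B1 replicate 3 (adjusted p = 0.0390). Abcg1 was at 0.54 ± 0.22 (adjusted p = 0.141), at 0.79 without old B1 replicate 2 (adjusted p = 0.0206), at 0.32 without old B1 replicate 3 (adjusted p = 0.334), and at -0.27 by its second probe set. Cd36 was at 0.44 ± 0.64 (adjusted p = 0.720), and at -0.31 without old B1 replicate 3. Abca1 was at 0.04 ± 0.31 (adjusted p = 0.958, 95% interval -0.65 to 0.72) and Nr1h3 at -0.25 ± 0.18 (adjusted p = 0.415).

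In old B1 against young B1, 0.291% of all genes and none of the 7 were called by limma. An unadjusted p under 0.05 was seen in 1377 of all 18193 genes and in 2 of the 7. These were the efflux transporters, and they were also the 2 whose groups did not overlap, a pattern of 13.9% of all genes. Abcg1 was 0.97 ± 0.22 higher in old B1, or 1.96-fold (limma adjusted p = 0.172), and passed at 1.22 without old B1 replicate 2 (adjusted p = 0.0353). It was 0.75 higher without old B1 replicate 3. Its second probe set was at 0.67. Abca1 was 0.71 ± 0.31 higher (limma adjusted p = 0.652), and its other probe sets were at 0.77 and 0.80. Differences of the other 5 genes were 0.87 for Cd36, 0.20 for Apoe, -0.06 for Nr1h3, -0.26 for Lpl and -0.28 for Apoc2, with adjusted p from 0.715 to 0.934. Without old B1 replicate 3, Cd36 was at 0.13, Lpl at 0.62 and Apoc2 at 0.34.

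Profiles were set against those of 8834 brighter genes over the 12 arrays, each gene centred on its own mean. Likeness is the mean absolute log2 difference, and the arrays share their library and scaling, so it is a description. Nearest to Apoc2 were Fcer1g (0.54), Pik3r6 (0.58), Phactr2 (0.61) and Art3 (0.62). Fcer1g, the common gamma chain of Fc receptors, averaged 12.48 in old ABC, 9.85 in old B1, 7.81 in old FO and 9.82 in young B1. Nearest to Lpl were Fabp4 (0.30), C1qc (0.40), Timp2 (0.42) and Ccl9 (0.43). C1qc, a complement subunit made by macrophages, was at 8.01 on old B1 replicate 3 against 10.84 and 10.62 on the other old B1 arrays, and Lpl was lowest on the same array. Nearest to Abca1 were Spata6 (0.30), Atp1b1 (0.32), Smagp (0.34) and Lratd2 (0.34). Atp1b1 was also near Cd36 (0.46), after Ndrg1 (0.38) and Slc1a4 (0.39). Apoe was nearest to Zc2hc1a (0.31) and Gpc1 (0.33), and Nr1h3 to Gkap1 (0.20) and Ercc6l2 (0.21).

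Since lipoprotein genes are strong in macrophages, the markers of that cell type are given beside them. Of 15 macrophage and monocyte markers 13 were measured, and none lay under the 25th percentile of every array. Their summed intensity was 16079 to 18047 in old ABC, 12253 to 30238 in old B1 and 1073 to 3009 in old FO, and it was 15750 to 26939 in young B1. Against old FO, 10 of the 13 rose in old ABC and 13 of 13 rose in old B1 (limma), beside 7.12% and 8.4% of all genes. Between old ABC and old B1, 1 was higher and 2 were lower in old ABC, beside 7.4% and 5.43% of all genes. Adgre1 was higher by 2.17 ± 0.40 in old ABC than in old B1 (adjusted p = 0.00520) and Vsig4, a marker of resident macrophages, differed by -5.09 ± 0.78 (adjusted p = 0.00169). The sum was lowest in old FO, as Lpl was, and the sums of old ABC lay inside the range of both B1 groups. Single markers differed between old ABC and old B1, so like sums need not mean like cells or like amounts of them. The lowest macrophage sum of the old B1 arrays, the lowest Apoc2, Apoe and Lpl values of old B1 and its low 75th percentile all fell on replicate 3. This was not particular to macrophage markers. Every marker list but those of B cells and endothelial cells had its lowest old B1 sum on that array. T cell markers, for example, summed to 408 there, against 2217 and 1714 on the other old B1 arrays. Neutrophil markers summed to 20704 to 35040 in old ABC, against 168 to 398 in old B1 and 450 to 9969 in old FO. Of 10 mesothelial and stromal markers 3 rose in old B1 against old FO, beside 8.4% of all genes, namely Krt18, Krt8 and Col3a1. Msln and Wt1 lay under the 25th percentile of every array. The 10 markers summed to 6136 to 9880 in old B1 and 3434 to 3775 in young B1, against 219 to 596 in old ABC and 161 to 227 in old FO. Mast cell markers summed to 223 to 846 in old ABC and 1957 to 4608 in old B1, against 102 to 120 in old FO, and to 2110 to 9758 in young B1. Of 7 mast cell markers 6 rose in old B1 against old FO, where Lpl rose too, beside 8.4% of all genes. In old ABC against old B1, 4 of them fell (limma), beside 5.43% of all genes. The part of these cell types in the results was not tested.

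**Figure D4:**
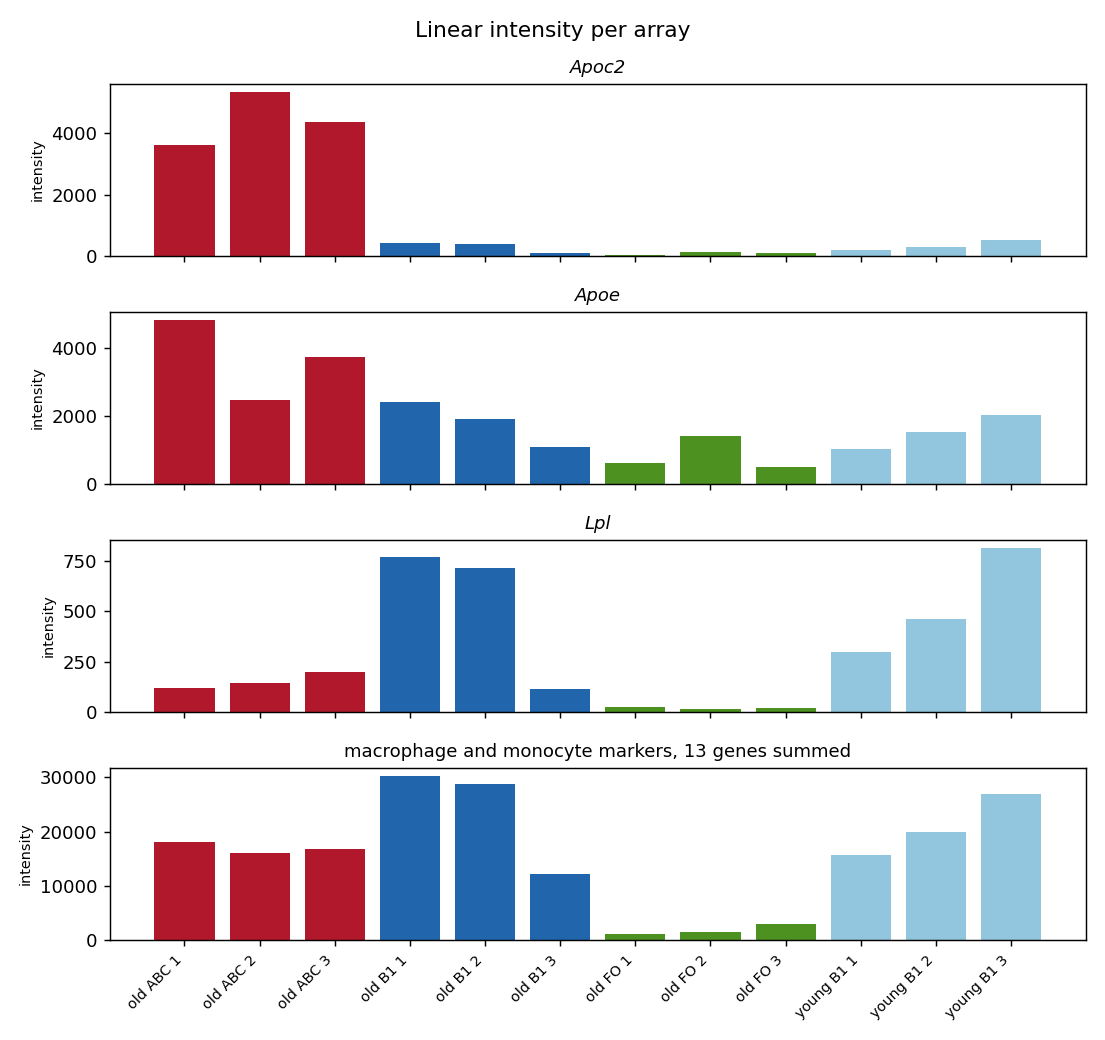
Linear intensity (vertical axes, from 0) of Apoc2, Apoe and Lpl and the summed intensity of 13 macrophage and monocyte markers, 1 bar for each of the 12 arrays. Old FO arrays (sums of 1073 to 3009) have the lowest Lpl bars. Old ABC arrays (sums of 16079 to 18047) have the tallest Apoc2 bars. The part of macrophages in these values was not tested.

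The wider pathway was described with 10 lists of 140 genes, of which 125 were measured and none is one of the 8 genes. In old ABC against old FO, 17 rose and 8 fell, together 25 of 125 beside 9.96% of all genes (7.12% higher, 2.84% lower); their median difference was 0.00, against -0.03 over all genes. In old ABC against old B1, 11 rose and 8 fell, beside 12.8% of all genes (7.4% higher, 5.43% lower). In old B1 against old FO, 20 rose and 23 fell, beside 16.4% of all genes (8.4% higher, 8.02% lower). Between old B1 and young B1 none of the 125 was called by limma, beside 0.291% of all genes. Of the 125, 11 had an unadjusted p under 0.05, beside 1377 of all 18193 genes. The same shares of called genes stand beside the counts of single lists below, from which no enrichment is read.

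Among 11 RXR partners and coregulators of LXR, 1 rose and 1 fell in old ABC against old FO, and 1 fell against old B1. Rxra, the RXR that pairs with LXR, rose against old FO by 1.83 ± 0.45 (limma adjusted p = 0.0281). Without any 1 of the 6 old ABC and old FO arrays its adjusted p was 0.0502 to 0.0971, and the mean of its probe sets gave 0.54, so the call is weak. Tbl1x, a part of corepressor complexes, fell by 0.33 ± 0.09 against old FO (adjusted p = 0.0485, 0.0100 to 0.153 over the alternatives) and by 0.52 ± 0.09 against old B1 (adjusted p = 0.00393). Among 11 other LXR target genes, 3 rose and none fell in old ABC against old FO, a count that was 1 without old FO replicate 1. Smpdl3a, a phosphodiesterase that LXR induces in macrophages, rose by 1.15 ± 0.18 (adjusted p = 0.00193), and the call held under every alternative run. Mylip, which marks the LDL receptor for degradation, rose in old ABC against old B1 by 0.96 ± 0.14 (adjusted p = 9.7e-04). Of 6 oxysterol enzymes, 1 rose and 1 fell in old ABC against old FO, and 2 rose and 1 fell against old B1. Sult2b1, which sulphates cholesterol and oxysterols, rose in old ABC by 1.64 ± 0.32 against old FO (adjusted p = 0.00864) and by 1.84 ± 0.32 against old B1 (adjusted p = 0.00378). Its old FO and old B1 values lay under the median of each array, so these sizes depend on the scale. Cyp27a1, the mitochondrial sterol hydroxylase, fell by 1.63 ± 0.39 against old FO (adjusted p = 0.0244) and rose by 1.41 ± 0.39 against old B1 (adjusted p = 0.0395), calls lost without any 1 old ABC array. The rise against old B1 was 0.83 without old B1 replicate 3. Cyp7b1, an oxysterol hydroxylase, fell by 0.83 ± 0.13 against old B1 (adjusted p = 0.00196). It lay under the 25th percentile of each old ABC array and under the median of each old B1 array, so this size is not exact.

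Among 15 genes of PPAR and fatty acid uptake, 4 rose and 1 fell in old ABC against old FO. Pparg, a lipid-activated receptor that drives Cd36 in macrophages, was at 6.70, 6.31 and 6.26 in old ABC, 4.78, 5.28 and 4.80 in old B1 and 4.99, 5.09 and 5.07 in old FO. It rose by 1.37 ± 0.18 against old FO (limma adjusted p = 6.7e-04) and by 1.47 ± 0.18 against old B1 (adjusted p = 4.3e-04). The old FO and old B1 values of Pparg lay under the median of each array, so these sizes depend on the scale. By group mean, Pparg was higher and Cd36 lower in old ABC than in both other old groups. A link between these genes was not tested. Fabp5, a fatty acid carrier inside cells, rose by 2.16 ± 0.35 and 1.98 ± 0.35 in the same contrasts. Acsl3, which joins fatty acids to coenzyme A, fell by 2.47 ± 0.44 in old ABC against old FO. The list's count of 5 was 3 without old ABC replicate 2, old ABC replicate 3 or old FO replicate 2.

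Of 11 genes of sterol storage and transport inside the cell, 5 rose and none fell in old ABC against old FO, and 7 rose and 2 fell in old B1 against old FO. Lipa, the lysosomal acid lipase that frees cholesterol from its esters, rose by 0.58 ± 0.12 in old ABC (limma adjusted p = 0.00981) and by 1.42 ± 0.12 in old B1 (adjusted p = 2.0e-05), both against old FO. Gramd1b, which carries cholesterol from the plasma membrane, rose by 2.02 ± 0.41 in old ABC against old FO, and Npc1, the lysosomal cholesterol exporter, by 0.45 ± 0.09. Without old B1 replicate 3 the list's count in old ABC against old FO was 8.

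Of 22 genes of cholesterol synthesis and its regulation by SREBP2, 1 rose and 5 fell in old ABC against old FO, with a median difference of -0.38 against -0.03 over all genes. Fdps, which makes farnesyl diphosphate, fell by 1.35 ± 0.26 (limma adjusted p = 0.00685). The count of 6 is unstable: it was 1 to 3 without any 1 of the old ABC, old FO or young B1 arrays, and 13 without old B1 replicate 3. Old B1 had none risen and 11 fallen against old FO, with a median of -0.64, and the count was 7 without old FO replicate 1 or replicate 3. Pmvk, a kinase of the mevalonate path, fell by 1.20 ± 0.16 and Insig1, which holds back the sterol sensor, fell by 0.86 ± 0.14.

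**Figure D5:**
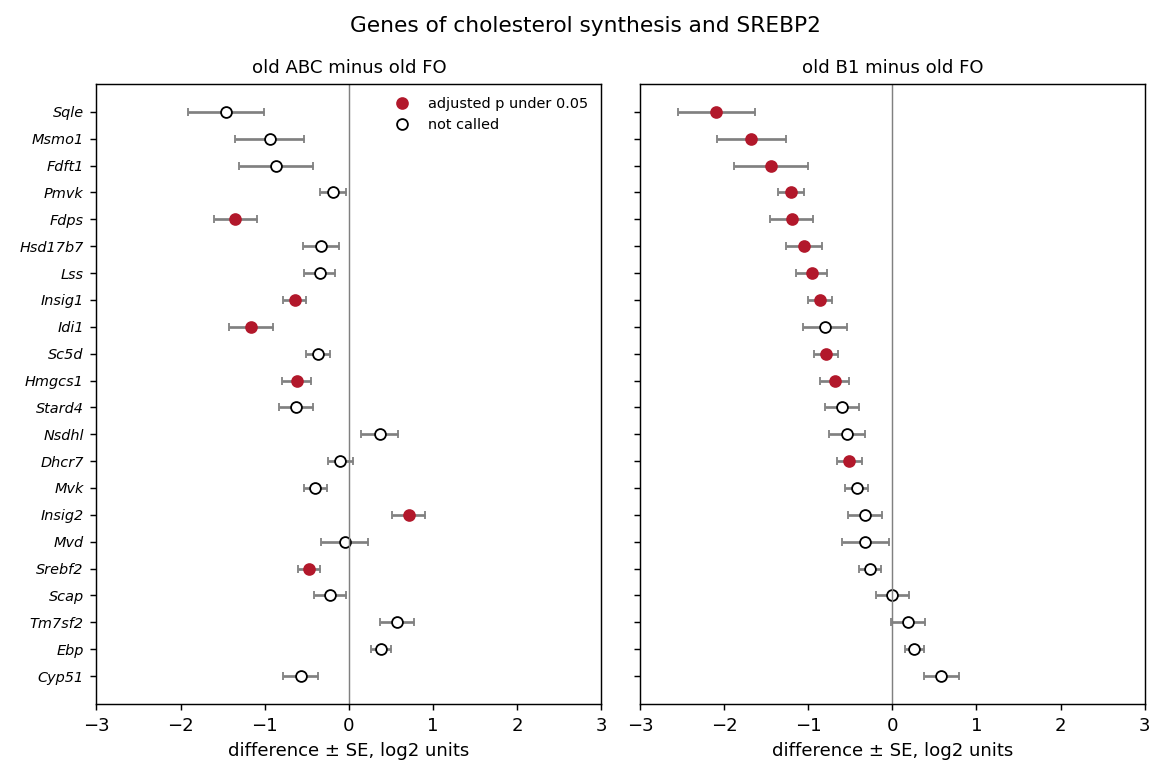
Differences of group means ± SE (horizontal axes, log2 units) of the 22 measured genes of cholesterol synthesis and SREBP2, old ABC minus old FO and old B1 minus old FO, with filled points for an adjusted p under 0.05. In old ABC 5 of the 22 fell and 1 rose, and in old B1 11 fell and none rose.

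Among 16 other ABCA and ABCG transporters none was called in old ABC against old FO by limma, although 3 passed without old B1 replicate 3 and 1 without old FO replicate 2. Abca3, a phospholipid transporter, rose by 1.12 ± 0.16 in old B1 against old FO (adjusted p = 8.5e-04). Among 12 lipoprotein and scavenger receptors, 1 rose in old ABC against old FO, a count that was 5 without old B1 replicate 3 and 2 without old B1 replicate 2. Msr1, the class A scavenger receptor of macrophages, differed by -3.50 ± 0.54 in old ABC against old B1 (adjusted p = 0.00173) and rose by 4.64 ± 0.54 in old B1 against old FO (adjusted p = 2.0e-04). Without old B1 replicate 3 these differences were -4.20 and 5.35. Of 15 other apolipoprotein and lipoprotein assembly genes, Apoa2 alone was called in old ABC, at 0.87 ± 0.16 against old FO, and lost the call when quantile normalization was repeated (0.48). Of 8 genes that mature, anchor or inhibit lipoprotein lipase, none was called in old ABC against old FO by limma.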

How the data were processed

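Affymetrix arrays measured sorted mouse B cells in 4 groups of 3. The authors' deposited table holds linear intensities, 1 value per probe set and array. RMA and affy are named in the submitters' processing notes, with versions and parameters not given in the sources used here. Log2 of these intensities was taken with no further scaling, background correction or filter. Of 45037 probe sets, 34945 name 1 gene in the platform annotation, 932 several and 9160 none; 34741 matched a current gene ID, and 0 symbols changed. A gene was represented by its single-symbol probe set with the highest mean (9010 of 18193 genes have several).

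limma 3.58.1 (R 4.3.3) fitted 4 group means over the 12 arrays (lmFit, eBayes), with Benjamini-Hochberg adjustment over 18193 genes in each of 4 comparisons and a threshold of 0.05. The fit was tested on simulated data. Arrays give no depth; the number of arrays, 3 per group, 2 arrays that stand apart and dim probe sets limit the precision.

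The genes, the lists and the tests were chosen with earlier results of these data known. Named pathway genes are the called genes with the lowest p, at most 3 per list and comparison; for each measured gene whose group means span 1 log2 unit, the nearest profiles are named. Promoters come from RefSeq (GRCm38.p6). Alternatives were trend and robust fitting, array weights, the compared groups alone, a replicate block, repeated quantile normalization, centring on the 75th percentile, 32 added to the intensity, dim genes left out, other probe set rules, and leaving out arrays. The main fit did not pair arrays by replicate number. Deviations of 18 same-numbered pairs correlated at -0.39 to 0.23, with 3 over 0.1. Differently numbered pairs were not compared, so this does not settle whether the numbers pair arrays.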

Additional observations from a re-analysis of the deposited data

How the results depend on the processing

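The differences of Apoc2 and Abca1 in old ABC against old FO and against old B1 kept their sign under every alternative run. Leaving out 1 array gave Apoc2 5.11 to 6.13 against old FO and 3.41 to 4.36 against old B1, and Abca1 -2.30 to -1.62 against old FO and -2.33 to -1.66 against old B1. The mean of the Abca1 probe sets gave -1.82 against old FO and -1.60 against old B1, and array weights gave 3.35 for Apoc2 against old B1. Array weights, which give old B1 replicate 3 and old FO replicate 2 weights of 0.102 and 0.349, moved most counts. The 1812 genes called in old ABC against old FO became 3961 with weights and 2964 without both arrays. The 2334 of old ABC against old B1 became 3592 with weights and 1062 with the compared groups alone. The 2988 of old B1 against old FO became 5001 and 1455 in the same settings. Over every probe set, 3694 were called in old ABC against old B1 and 4964 in old B1 against old FO. These are out of 34945 probe sets, not 18193 genes, so they cannot be set beside the gene counts. The 53 of old B1 against young B1 became 316 with weights, 2 with the groups alone, 32 with a replicate block and 208 without both arrays. The 1 of 7 genes called in old B1 against old FO became 4 with weights and 3 without both arrays, and the 0 in old B1 against young B1 became 1 with weights. Pathway genes called were 51 with weights in old ABC against old FO (25 before), 29 with weights and 10 with the groups alone in old ABC against old B1 (19 before), 22 with the groups alone in old B1 against old FO (43 before), and 3 with weights, 1 with 75th percentile centring and 2 without both arrays in old B1 against young B1 (0 before). Leaving out 1 array gave 1267 to 2837, 1609 to 2738, 2098 to 3555 and 17 to 165 called genes in the same 4 comparisons, 14 to 44, 12 to 26, 31 to 52 and 0 to 1 pathway genes, and 1 to 3 and 0 to 1 of the 7 genes in the contrasts without old ABC.

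Signs turned only for small differences. In old B1 against old FO, Abca1 was -0.14 with weights, -0.22 as the mean of its probe sets and -0.22 without both arrays (-0.17 to 0.15 leaving out 1 array), and Cd36 was -0.15 with weights and -0.19 without both (-0.31 to 0.87). In old B1 against young B1, Apoc2 was 0.11 and 0.34 in these settings (-0.61 to 0.34), Lpl 0.35 and 0.62 (-0.73 to 0.62), Nr1h3 0.038 and 0.015 (-0.18 to 0.070), and Apoe ranged from -0.059 to 0.53. The replicate block changed no call of the 7 genes in the tested contrasts. The causes were not tested. Dim probe sets, such as Nr1h3 outside old ABC and Lpl in old FO, limit the folds.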
